A study of Mus musculus with 6 samples.

Results

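Spermatid and sperm transcripts were examined in the whole epididymis of mice with and without occludin, a membrane protein of tight junctions. A list of 38 genes was used, chosen by name because their products build or equip the male germ cell after meiosis. The choice was made with earlier results of these data known. All 38 were found among the 57127 genes in the count table. The libraries came from adult C57BL/6 mice, 3 from wild type (WT) and 3 from Ocln-/- animals (Ocln-KO), a knockout that is not limited to the epididymis and so includes the testis. RNA was taken from 3 pairs of mice, but pooled RNA is spoken of too, and it is not said that a library is 1 mouse, so n counts libraries and the p-values measure the spread between libraries, which may be partly technical. Values are the reads counted per gene, scaled to a common library size with edgeR's TMM factors and given as CPM, the counts a gene would have in a library of 1000000. The libraries held 30646424 to 38870780 counts, and 3 counts equalled 0.0802 to 0.0942 CPM. Ocln had 85.5 ± 6.51 CPM (SD, n = 3) in WT and 15.1, 15.3 and 14.9 CPM in the Ocln-KO libraries, so the labels matched the targeted gene. Crisp1, a secretory product of the epididymal epithelium, was abundant in all 6 libraries, at 4439 CPM or more.

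When round spermatids elongate, histones are replaced first by transition proteins and then by protamines, the tail and its sheath are assembled, and the acrosome is formed. Transcription ends while this goes on, and a spermatozoon leaves the testis with messages that were made earlier and stored. Sperm then fill the lumen of the epididymis, so an extract of the whole organ holds germ cell RNA beside that of the epithelium, muscle, vessels and immune cells. In such bulk samples, fewer sperm and less RNA per sperm cannot be told apart.

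The promoters of 4 genes are shown for the contrasts described afterwards: Odf4, lower in every Ocln-KO library; Smcp, an abundant sperm transcript that was low in only 1 of them; and Izumo1 and Zpbp, which were not low in that library. Each line gives the 100 bases before the RefSeq start in GRCm38.p6, read 5′ to 3′ on the gene's strand, and capitals mark each half-site TGACG, on either strand, of the cAMP response element TGACGTCA, to which factors such as CREM of round spermatids bind.
Odf4, minus strand, chr11:68927082-68927181: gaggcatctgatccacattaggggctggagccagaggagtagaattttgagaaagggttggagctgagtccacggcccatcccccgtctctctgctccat
Smcp, minus strand, chr3:92589074-92589173: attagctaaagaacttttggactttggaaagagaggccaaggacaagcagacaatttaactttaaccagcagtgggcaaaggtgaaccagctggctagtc
Izumo1, plus strand, chr7:45621711-45621810: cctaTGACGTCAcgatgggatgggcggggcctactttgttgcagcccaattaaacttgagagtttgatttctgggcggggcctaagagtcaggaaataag
Zpbp, minus strand, chr11:11462420-11462519: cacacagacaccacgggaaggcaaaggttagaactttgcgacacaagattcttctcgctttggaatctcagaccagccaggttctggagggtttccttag

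RefSeq promoter windows of 300 bases, from 250 before to 50 after the start, were at hand for 33 of the 38 genes, with 39 windows in all. No window was listed for Acr, Oaz3, Odf1, Catsper1 or Adam2. The full element TGACGTCA was in 1 of the 39 windows, that of Izumo1 (2.56%), against 1.79% of 32851 promoters of all genes. Its half-site TGACG, which also lies inside the full element, was in 11 of the 39 windows (28.2%) against 20.8% of all promoters, and the 9 genes with it were Acrbp, Catsper2, Gapdhs, Izumo1, Ldhc, Meig1, Spaca1, Tssk6 and Zpbp2. These matches are letters in a window and not measured binding.

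Counted reads per kilobase of exon, the scale on which genes can be compared, placed 2 tail proteins first in WT. Odf1, a protein of the outer dense fibres that stiffen the tail, had 125 ± 12.3 CPM per kb (SD, n = 3), and Smcp, a cysteine-rich protein of the mitochondrial capsule, had 109 ± 24.3. These values did not differ beyond their spread. Next came the protamines Prm2, with 43.2 ± 8.71 CPM per kb, and Prm1, with 31.98 ± 8.94, which package the sperm DNA. They overlapped within their spread between libraries, but Prm2 was above Prm1 within each WT library. Prm2 had 49.2, 33.2 and 47.1 CPM per kb there, against 37.1, 21.7 and 37.2 for Prm1. Tssk6, a kinase of spermatids needed for chromatin condensation, had 27.4 ± 2.26 CPM per kb, and Oaz3, the antizyme of the testis that restrains polyamine synthesis, had 22.3 ± 3.11. From Prm2 to Oaz3, neighbours in this order overlapped within 1 SD of each mean. Tssk6 was nevertheless above Oaz3 within each WT library, at 28.7, 24.8 and 28.7 against 25.9, 20.4 and 20.6 CPM per kb. The place of Oaz3 rests on an exon length of 4326 bases, of which 2255 are shared with Tdrkh on the opposite strand. At the lower end, Acrv1, Odf3, Catsper1 and Izumo1 had 0.109, 0.107, 0.196 and 0.189 CPM per kb in WT, and Tssk1, Tssk2 and Tssk3 were near 0. In CPM, Odf1, Smcp and Oaz3 together made up 54.6% of the summed WT signal of the 38 genes.

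**Figure D1:**
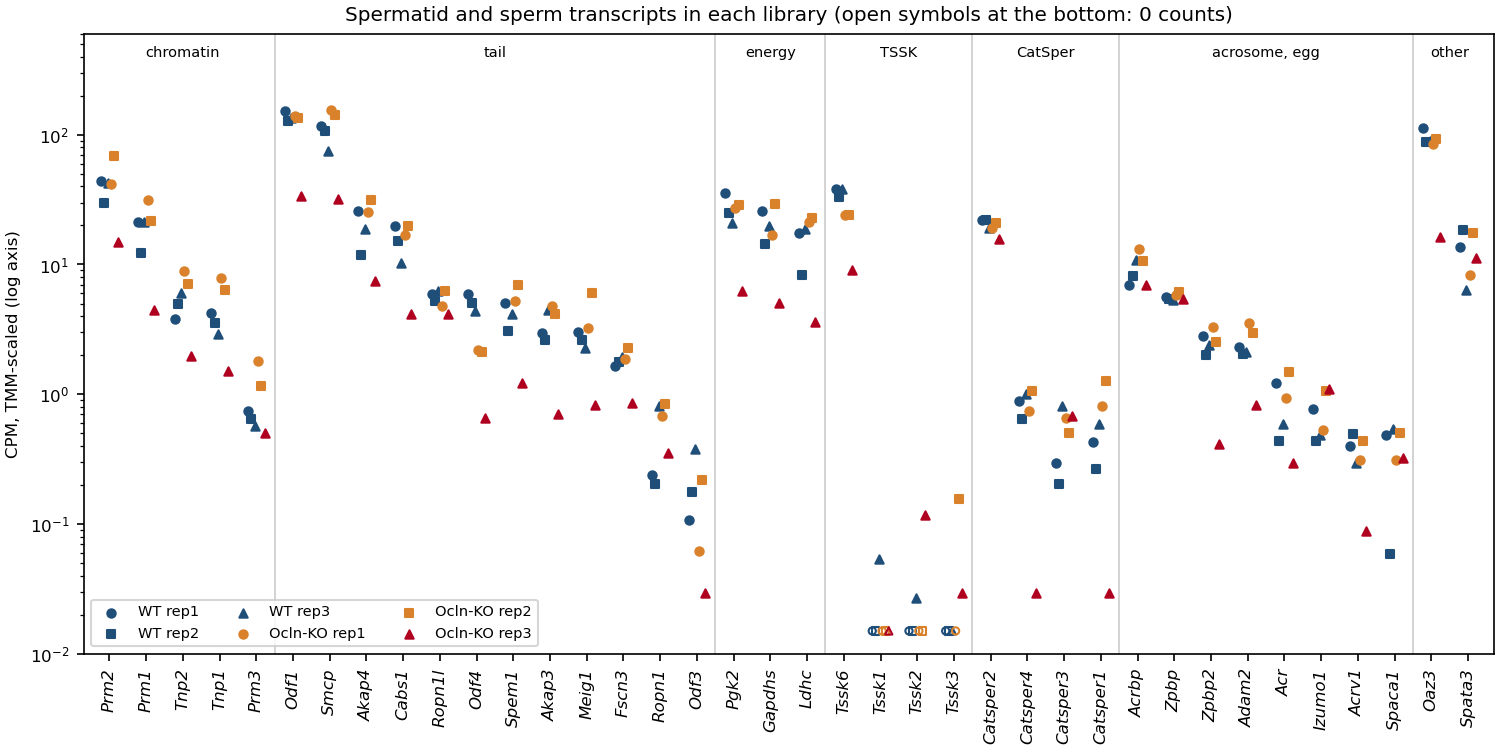
Level of each of the 38 genes (CPM, log axis) in each library, ordered by role; blue symbols are WT, orange and red are Ocln-KO, and open symbols at the bottom stand for 0 counts. The red triangles of Ocln-KO rep3 lie under the other symbols for most genes, but not for Izumo1, Zpbp or Catsper3.

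Summed over the 38 genes, the WT libraries had 702, 563 and 574 CPM and the Ocln-KO libraries 681, 726 and 194 CPM. Ocln-KO rep1 and rep2 thus lay at or above most of the WT libraries, while Ocln-KO rep3 lay 3.63-fold under the mean of the other Ocln-KO libraries and 3.17-fold under the WT mean. The genotype means, 613 ± 77.4 CPM in WT, against 534 ± 295 CPM in Ocln-KO (SD, n = 3), differed by less than the spread among the Ocln-KO libraries, and without rep3 the Ocln-KO mean was 703 CPM. Leaving out Odf1, Smcp and Oaz3 gave 320, 240 and 275 CPM in WT, against 304, 357 and 111 CPM in Ocln-KO, with the same library lowest.

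By role, the depth of this dip in Ocln-KO rep3 was uneven. The chromatin proteins summed to 91.8 and 104.9 CPM in Ocln-KO rep1 and rep2 but to 23.5 CPM in rep3, which was 4.19-fold lower. Tail proteins were 4.13-fold lower in rep3 than in the mean of the other Ocln-KO libraries, at 86.4 CPM, and the enzymes of sperm glycolysis 4.91-fold lower, at 14.9 CPM. The ion channel subunits, at 16.5 CPM, were only 1.37-fold lower, and the proteins of the acrosome and egg binding, at 15.4 CPM, 1.73-fold lower. Abundant single genes weighed on both of the last sums, Catsper2 on the first and Acrbp and Zpbp on the second.

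**Figure D2:**
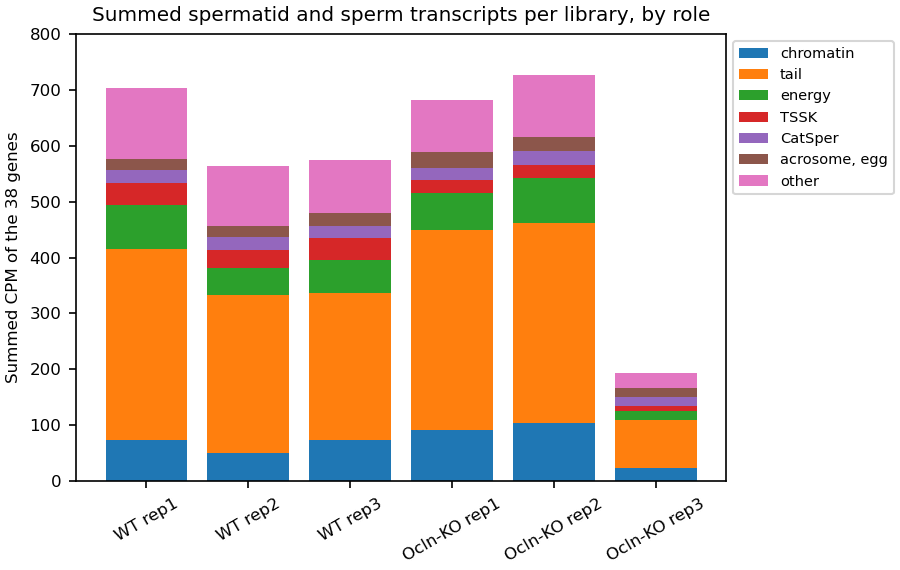
Summed CPM of the 38 genes in each library, with colours for the roles of the genes. The bar of Ocln-KO rep3 reaches 194 CPM and the other 5 bars lie between 563 and 726 CPM.

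Of the 38 genes, 34 were abundant enough to be tested with edgeR's quasi-likelihood test. Odf3, of the outer dense fibre group, had between 1 and 14 counts in each library, and the spermatid kinases Tssk1, Tssk2 and Tssk3 had at most 5 counts in any library, so no difference could be seen at this depth for these genes. At an adjusted p under 0.05 over all genes tested, 0 of the 34 were lower and 0 were higher in Ocln-KO, against 5.04% and 3.91% of the 19691 genes tested. Without adjustment, a p under 0.05 was reached by 5723 of the 19691 genes tested and by 2 of the 34, Odf4 and Tssk6. DESeq2 called both of these lower and none higher, against 1708 lower and 1604 higher over all genes. With limma-voom Odf4 alone was called, against 1050 lower and 729 higher over all genes. The log2 fold changes (Ocln-KO over WT) were below 0 for 15 genes and above 0 for 19, with a median of 0.08 against 0.01 over all genes tested. Their median standard error was 0.51, against 0.20 for all genes, and the 95% interval of 29 of the 34 reached beyond a 2-fold change, so the test could not show most differences of that size here.

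**Figure D3:**
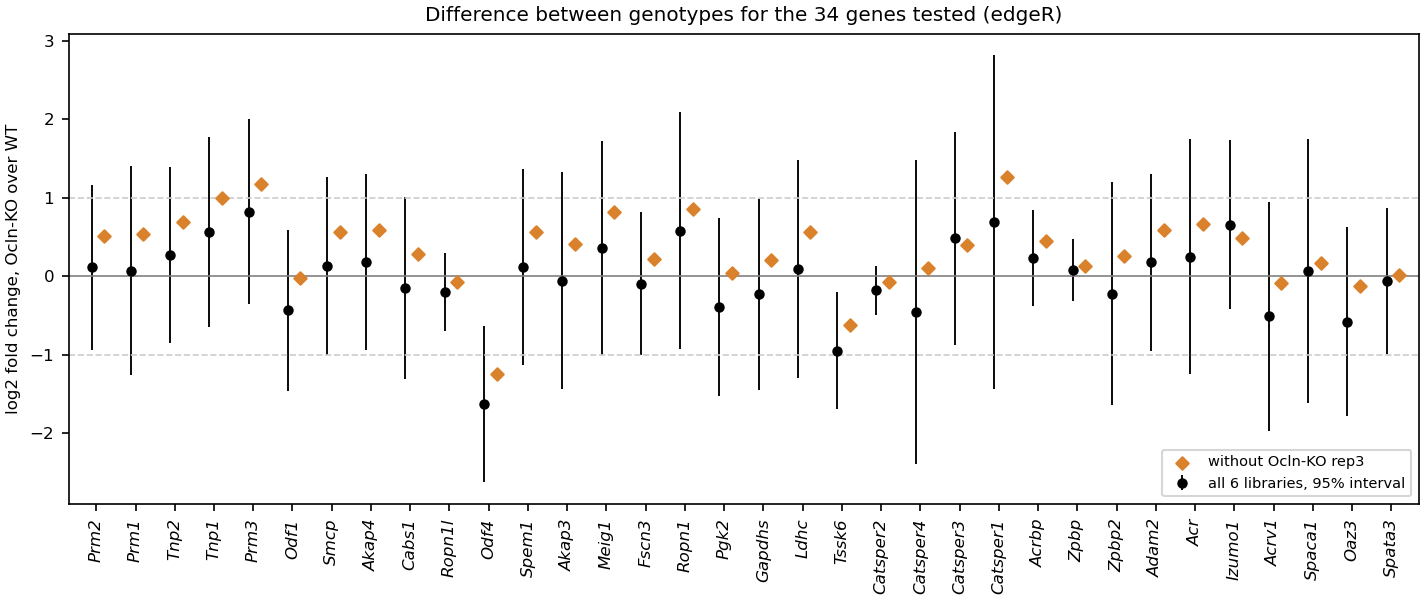
Log2 fold change between genotypes for the 34 genes tested, with black points and 95% intervals from all 6 libraries and orange diamonds from the fit without Ocln-KO rep3; dashed lines mark 2-fold. Only Odf4 and Tssk6 have an interval that lies wholly under 0, and most of the diamonds lie above the black points.

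Odf4, a membrane-bound protein of the outer dense fibre group, lay on chromosome 11 from 68921835 to 68927081 (GRCm38). It had 5.91, 5.01 and 4.42 CPM in WT, against 2.18, 2.13 and 0.651 CPM in Ocln-KO, so every Ocln-KO library was below every WT library. The log2 fold change was -1.63 (standard error 0.43, 95% interval -2.62 to -0.63), and the adjusted p was 0.0554 with edgeR. Over the alternative fits the adjusted p ran from 0.00243 with DESeq2 to 0.171 without WT rep1. Without Ocln-KO rep3 the difference was -1.24 with an adjusted p of 0.0226 (edgeR).

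Tssk6 was the second gene whose genotypes did not overlap, and it lay on chromosome 8 from 69902184 to 69903518. WT libraries had 38.3, 33.1 and 38.3 CPM, and Ocln-KO libraries had 23.9, 23.9 and 9.12 CPM. Even the highest Ocln-KO value was thus well under the lowest of WT. The log2 fold change was -0.95 (standard error 0.32), with an adjusted p of 0.102 in edgeR and a range over the alternatives from 0.0191 (DESeq2) to 0.247. Leaving out Ocln-KO rep3 gave -0.61 and an adjusted p of 0.0210 (edgeR). On the opposite strand, Ndufa13 shares 375 of the 1335 exon bases of Tssk6 (28.1%). Since the strand setting of the counting is not given, it cannot be told whether reads of Ndufa13 entered the Tssk6 count.

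Non-overlap of this kind was seen for 2 of the 34 genes downwards and 0 upwards. Over all 19691 genes tested, 19.4% were lower in every Ocln-KO library than in any WT library and 16.9% were higher, so neither count exceeded the background.

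The chromatin genes had no call in the fit of all 6 libraries. Prm1 and Prm2, the protamines, Tnp2, a transition protein, and Prm3 lie side by side on chromosome 16, from 10787936 for Tnp2 to 10805839 for Prm1. Prm2 had 44.0, 29.7 and 42.1 CPM in WT, against 41.8, 68.5 and 15.0 CPM in Ocln-KO. Prm1 had 21.2, 12.4 and 21.2 CPM in WT, against 31.4, 21.8 and 4.44 CPM in Ocln-KO. For both protamines 1 Ocln-KO library was the highest of all 6 and another the lowest, and the log2 fold changes were 0.11 and 0.07. Tnp2 showed the same layout, with 3.82 to 6.06 CPM in WT, against 8.92, 7.09 and 1.98 CPM in Ocln-KO.

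The other transition protein gene, Tnp1, lies alone on chromosome 1 from 73015074 to 73015909. It had 4.22, 3.55 and 2.94 CPM in WT, against 7.92, 6.40 and 1.51 CPM in Ocln-KO, again with Ocln-KO libraries at both ends of the order. The fit of all 6 libraries gave a log2 fold change of 0.56 (adjusted p = 0.520, edgeR), while without Ocln-KO rep3 it was 1.003 with an adjusted p of 0.0364. Prm3, a small acidic protein of spermatids, was scarce, with 0.748, 0.645 and 0.565 CPM in WT, against 1.81, 1.16 and 0.503 CPM in Ocln-KO (log2 fold change 0.82, adjusted p = 0.327, edgeR).

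Among tail genes the largest signals were those of Odf1 and Smcp. Odf1 had 154, 127 and 135 CPM in WT, and Ocln-KO rep1 and rep2 lay within that range at 139 and 135 CPM. Ocln-KO rep3 had 33.8 CPM. Smcp had 117, 107 and 74.7 CPM in WT, against 154, 141 and 32.2 CPM in Ocln-KO, so its Ocln-KO values lay on either side of all WT values. Akap4, the main scaffold of the fibrous sheath that anchors protein kinase A, had 25.9, 11.9 and 18.7 CPM in WT, against 25.2, 31.5 and 7.46 CPM in Ocln-KO, and its partner Akap3 had 2.61 to 4.47 CPM in WT, against 4.80, 4.14 and 0.710 CPM in Ocln-KO. Cabs1, a calcium-binding protein of the tail, Spem1, which acts in shedding of cytoplasm, Meig1, which helps to build the manchette, and Fscn3, an actin-bundling fascin of the testis, were all lowest in Ocln-KO rep3, at 4.17, 1.21, 0.829 and 0.858 CPM.

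Ropn1l and Ropn1 are relatives that dock on A-kinase anchors of the sheath, and Ropn1l stood apart from these tail genes. Ropn1l had 5.27 to 6.27 CPM in WT, against 4.80, 6.28 and 4.14 CPM in Ocln-KO, a ratio of 0.748 for rep3 over the mean of the other Ocln-KO libraries. Ropn1 was under 1 CPM throughout and was lowest in a WT library, but its ratio for rep3 was 0.463.

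Sperm glycolysis was represented by Gapdhs, Ldhc and Pgk2, the germ cell forms of enzymes that other cells make from separate genes. Pgk2 had 35.8, 24.9 and 20.9 CPM in WT, against 27.1, 28.9 and 6.27 CPM in Ocln-KO. Gapdhs had 25.9, 14.3 and 19.8 CPM in WT, against 17.0, 29.3 and 5.03 CPM in Ocln-KO. Ldhc had 17.6, 8.32 and 18.9 CPM in WT, against 21.4, 22.8 and 3.61 CPM in Ocln-KO. In each case rep1 and rep2 of Ocln-KO overlapped WT or lay above it, and rep3 was lowest, at 0.224, 0.218 and 0.163 of their mean. How reads that also match the somatic paralogs were counted is not given.

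The CatSper subunits, which form the calcium channel that drives hyperactive swimming, were of 2 kinds. Catsper2 had 21.9, 22.1 and 19.2 CPM in WT, against 19.1, 20.998 and 15.8 CPM in Ocln-KO (log2 fold change -0.18, 95% interval -0.49 to 0.14), the smallest spread of any subunit. Catsper1 had 0.264 to 0.592 CPM in WT, against 0.810 and 1.26 CPM in Ocln-KO rep1 and rep2, and Catsper4 had 0.645 to 0.996 CPM in WT, against 0.748 and 1.07 CPM in those libraries, and both had 1 count in Ocln-KO rep3. Catsper3 was at 0.205 to 0.808 CPM in WT, against 0.655, 0.502 and 0.681 CPM in Ocln-KO, with no dip in rep3. At these low counts the 3 scarcer subunits are poorly measured.

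The acrosome and gamete-binding genes were mixed as well. Zpbp, a zona pellucida binding protein of the acrosome, was nearly level in all 6 libraries, with 5.64, 5.42 and 5.33 CPM in WT, against 5.86, 6.09 and 5.42 CPM in Ocln-KO, whereas its paralog Zpbp2 had 2.83, 2.02 and 2.40 CPM in WT, against 3.27, 2.54 and 0.414 CPM in Ocln-KO. The pair therefore parted in Ocln-KO rep3, at ratios of 0.906 and 0.142 to the mean of rep1 and rep2. Spata48 on the opposite strand shares 223 of the 4248 exon bases of Zpbp (5.25%). Izumo1, the sperm protein that binds the egg receptor Juno, had 0.775, 0.440 and 0.485 CPM in WT, against 0.530, 1.07 and 1.10 CPM in Ocln-KO, so the library lowest for most genes was here narrowly the highest. Rasip1 shares 654 of its exon bases (21.9%) on the same strand. Acrbp, which holds proacrosin in the acrosome, had 6.95, 8.15 and 10.8 CPM in WT, against 13.1, 10.5 and 6.95 CPM in Ocln-KO, and Gm44597 shares 975 of its exon bases (29.8%).

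Acr, the acrosomal protease acrosin, Adam2, the beta subunit of fertilin, and Acrv1, an acrosomal vesicle protein, followed the larger set, with 0.296, 0.829 and 0.0888 CPM in Ocln-KO rep3, the lowest of the 6 libraries for each. For Acrv1 that value is 3 counts, at the limit of what was counted as measured. Spaca1, a membrane protein of the acrosome, ranged from 0.0586 to 0.539 CPM within WT alone.

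Of the remaining genes, Oaz3 had 112, 88.3 and 89.0 CPM in WT, against 84.7, 92.7 and 16.4 CPM in Ocln-KO (log2 fold change -0.58, adjusted p = 0.505, edgeR). Tdrkh on the opposite strand shares 2255 of the 4326 exon bases of Oaz3 (52.1%). The strand setting of the counting is not given, so it cannot be told whether reads of Tdrkh entered the Oaz3 count. Spata3, a spermatogenesis-associated gene, had 13.6, 18.5 and 6.38 CPM in WT, against 8.26, 17.5 and 11.2 CPM in Ocln-KO, with a WT library lowest.

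Counted over the 34 genes tested, Ocln-KO rep3 was the lowest of the 6 libraries for 27 (79.4%), against 24.0% of all genes tested. It was at least 2-fold under the mean of Ocln-KO rep1 and rep2 for 26 genes (76.5%) and at least 4-fold under it for 18, while 9.85% of all genes tested were at least 2-fold under. The median log2 ratio was -2.02 for the 34 genes and -0.01 for all genes. The 7 genes not lowest in that library were Ropn1, Catsper3, Izumo1, Spaca1, Zpbp, Acrbp and Spata3. Total counts do not set this library apart, at 32776523 against a median of 31570990 in Ocln-KO. On the first principal component of all genes, with 47.2% of the variance, the Ocln-KO libraries lay at 17.7, 29.1 and 86.3 and the WT libraries between -52.8 and -37.0.

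**Figure D4:**
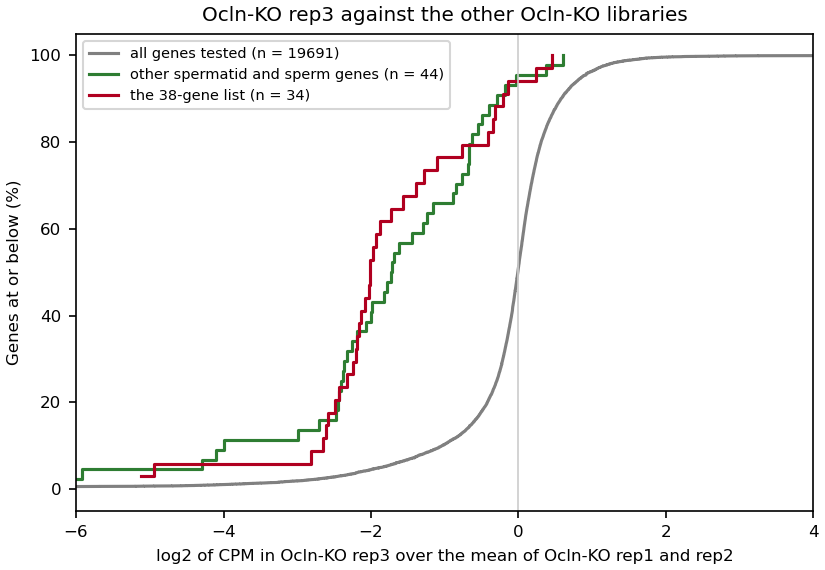
Cumulative share of genes (%) against the log2 ratio of Ocln-KO rep3 to the mean of the other Ocln-KO libraries, for all genes tested (grey), another list of spermatid and sperm genes (green) and the 34 genes tested of the 38 (red). The red and green curves lie left of the grey one, with medians of -2.02 and -1.72 against -0.01.

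Another 51 spermatid and sperm genes, of the same stages but outside the 38, gave a similar view, though these were listed with earlier results known and are no independent evidence. Summed, they had 270, 230 and 269 CPM in WT, against 290, 303 and 153 CPM in Ocln-KO. Ocln-KO rep3 was lowest for 31 of the 44 tested (70.5%). At an adjusted p under 0.05, 1 of the 44 was called lower and 1 higher, against 5.04% and 3.91% of all genes tested. Tekt5, a tektin of the flagellum, was the lower of these, with 5.53, 5.80 and 8.29 CPM in WT, against 2.74, 2.54 and 1.81 CPM in Ocln-KO (log2 fold change -1.47, adjusted p = 0.0237, edgeR). Catsperg1, an auxiliary subunit of the CatSper channel, was the higher, with 7.24, 7.27 and 7.76 CPM in WT, against 10.7, 11.2 and 10.7 CPM in Ocln-KO (log2 fold change 0.55, adjusted p = 0.0468, edgeR), and its adjusted p was 0.0659 without Ocln-KO rep3. The log2 fold change was below 0 for 28 of the 44 and above 0 for 16, with a median of -0.13. Besides Tekt5 and Catsperg1, Calr3, Spata9 and Lyzl4 were lower and Spata6 was higher in every Ocln-KO library without being called. In all, 4 of the 44 were lower and 2 higher with no overlap. Over all genes tested these shares were 19.4% and 16.9%, so neither count exceeded the background.

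Without Ocln-KO rep3, the view of the 34 genes changed in both directions. Odf4 and Tssk6 were then called lower and Tnp1 was called higher with edgeR, against 4.63% lower and 3.67% higher among the 20370 genes tested in that fit. The median log2 fold change of the 34 moved from 0.08 to 0.41. With only 2 Ocln-KO libraries left, 2 of the 34 were lower and 11 higher with no overlap, against 23.8% lower and 22.5% higher over all genes tested in that setting.

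Because 1 library held so much less of the whole set, each gene was also expressed as a percentage of the summed CPM of the 38 genes in its own library, a scale chosen after the data were seen. Odf4 made up 0.841%, 0.890% and 0.769% in WT and 0.320%, 0.294% and 0.336% in Ocln-KO. On this scale Ocln-KO rep3 was like the other Ocln-KO libraries. Tssk6 made up 5.45%, 5.87% and 6.67% in WT and 3.51%, 3.30% and 4.71% in Ocln-KO. Odf1 and Oaz3 were also lower in each Ocln-KO library, at 17.5% to 20.4% against 21.9% to 23.5% for Odf1 and at 8.48% to 12.8% against 15.5% to 15.9% for Oaz3. Being shares of 1 total, they cannot all move independently.

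Upwards, Tnp1 made up 0.601%, 0.630% and 0.511% in WT and 1.16%, 0.882% and 0.780% in Ocln-KO, and Prm3 0.107%, 0.114% and 0.0985% in WT and 0.265%, 0.160% and 0.260% in Ocln-KO. Adam2 and Akap4 were higher by smaller margins, Akap4 with 3.70% in the lowest Ocln-KO library against 3.68% in the highest WT library. In all, 4 genes were lower and 4 higher with no overlap, and on the same scale 2.76% of all genes tested were lower and 8.57% higher. These percentages for all genes cannot serve as a background. The divisor, the summed CPM of the listed genes, was 194 CPM in Ocln-KO rep3, against 563 to 702 CPM in WT. Genes that did not fall with this sum were therefore raised in that library on this scale. With 3 libraries against 3 the smallest exact permutation p is 0.1, so no test is given for the shares of the listed genes.

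**Figure D5:**
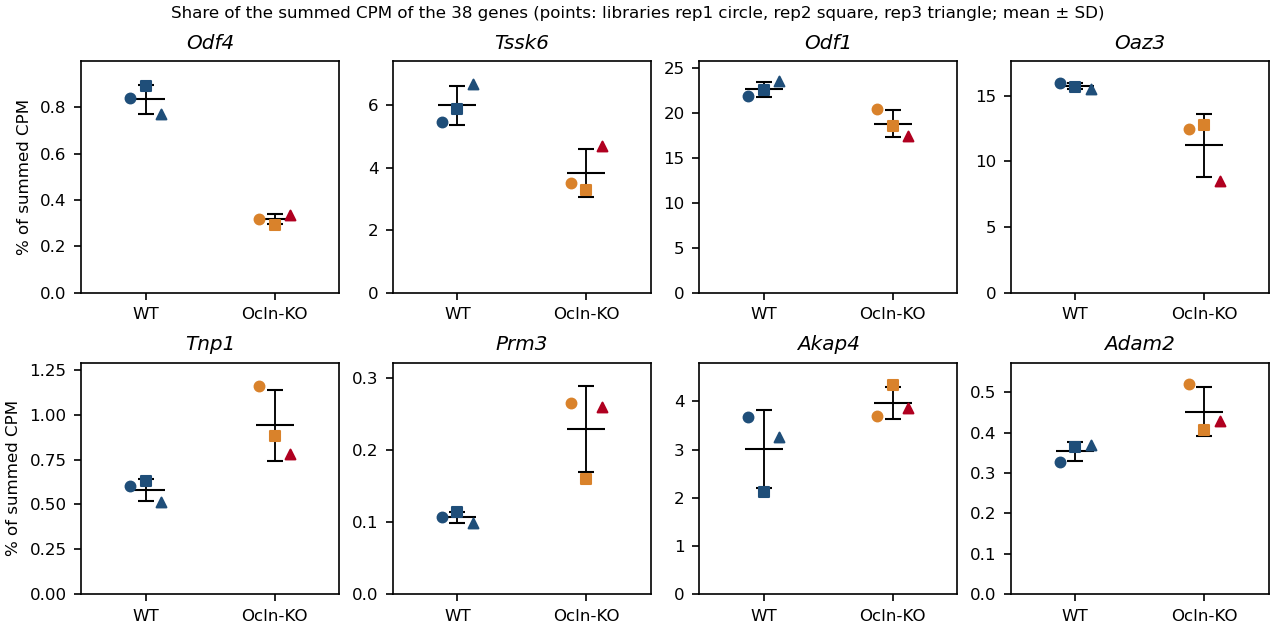
Share of the summed CPM of the 38 genes (%) for the 8 genes whose genotypes did not overlap on that scale, with points for libraries and bars for mean ± SD (n = 3). In the upper row the Ocln-KO points lie under the WT points, and in the lower row above them, narrowly so for Akap4.

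Markers of other cells also differed between these libraries. Meiotic germ cell genes summed to 46.3 to 59.5 CPM in WT and to 46.4, 45.1 and 18.8 CPM in Ocln-KO. Piwil2, a PIWI protein of the male germ line, held most of this sum in WT and was called lower. Spo11, which makes the DNA breaks of meiosis, was called higher, at 0.147 to 0.294 CPM in WT, against 1.03, 1.41 and 0.799 CPM in Ocln-KO (log2 fold change 2.34, adjusted p = 0.0315, edgeR). These were the calls among 13 genes tested, against 5.04% called lower and 3.91% called higher over all genes tested. Of the 13, 11 had a log2 fold change above 0, with a median of 0.30. Over all genes tested, 10018 of 19691 were above 0, with a median of 0.01. Sycp2, Ddx4, Mael and Tdrd1 were detected in every library, while Stra8 and Hormad1, which mark the entry into and the prophase of meiosis, were at or near 0. Testis somatic genes summed to 179 to 241 CPM in WT and to 60.3, 59.8 and 40.7 CPM in Ocln-KO. Cyp17a1 made up nearly all of it in WT, and in Ocln-KO rep3 Inha, the inhibin alpha subunit, was higher than Cyp17a1, at 22.4 against 14.3 CPM, while Insl3 and Amh were under 1 CPM and Hsd3b6 had 0 counts. Multiciliated cell genes, which share axonemal parts with sperm, had 46.2 to 49.1 CPM in WT, against 37.6, 54.3 and 36.4 CPM in Ocln-KO, with 0 of 12 called in either direction by edgeR at an adjusted p under 0.05 and 0 at an unadjusted p under 0.05.

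Among cells of the epididymis, the 12 macrophage genes summed to 247 to 289 CPM in WT and to 301, 373 and 540 CPM in Ocln-KO, and all 12 were higher in Ocln-KO rep3 than in the mean of the other Ocln-KO libraries. Lymphocyte genes had 6.11 to 6.52 CPM in WT, against 13.6, 13.1 and 19.0 CPM in Ocln-KO. The distal epididymis list, almost entirely Crisp1, had 12490 to 16771 CPM in WT, against 9960, 9163 and 4440 CPM in Ocln-KO, lowest in the same library, whereas genes of the proximal epididymis had 385 to 561 CPM in WT, against 414, 857 and 847 CPM in Ocln-KO. Ros1 held the largest part of the proximal sum in each library, with 208 to 325 CPM in WT, against 276, 360 and 420 CPM in Ocln-KO. Crisp4 had 158 to 206 CPM in WT, against 71.7, 183 and 197 CPM in Ocln-KO. Defb15, a defensin, had 16.8 to 27.4 CPM in WT, against 63.7, 310 and 228 CPM in Ocln-KO. Of the 5 proximal genes tested, 2 had a log2 fold change below 0 and 3 above, with a median of 0.04. Smooth muscle genes summed to 1234 to 1486 CPM in WT and to 1674, 2258 and 1868 CPM in Ocln-KO. Clear cell genes summed to 106 to 125 CPM in WT and to 69.4, 70.9 and 105 CPM in Ocln-KO. Car12 held much of the rep3 value, with 56.7 CPM there against 30.7 and 36.4 CPM in Ocln-KO rep1 and rep2. Of the 5 clear cell genes tested, 4 were lower in every Ocln-KO library, against 19.4% of all genes tested. By edgeR 3 of the 5 were called lower and 0 higher, against 5.04% and 3.91% of all genes tested. Blood genes summed to 21.9 to 49.6 CPM in WT and to 9.23, 13.2 and 6.04 CPM in Ocln-KO, lowest in rep3. General epithelial genes lay closer together, at 1572 to 1784 CPM in WT, against 1764, 1485 and 1349 CPM in Ocln-KO. The part of these shifts in the sperm transcript values was not tested.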

How the data were processed

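Per the labels and the paper, RNA of the whole epididymis was depleted of rRNA, made into directional libraries and sequenced as paired ends in a single lane; reads were aligned to GRCm38 with HISAT2 2.0.4 and assigned to genes with HTSeq. The authors deposited raw counts per gene, without normalization. The counting mode, strand setting and treatment of multiply aligned reads are not given in the sources used here, and 1 protocol label names prefrontal cortex while the tissue label names epididymis. Columns were matched to samples by name, with 0 unmatched. Symbols turned into dates by a spreadsheet (28) held 0.145% of counts.

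Counts were fitted with edgeR 4.0.16 in R 4.3.3: of 32046 genes counted at least once, filterByExpr kept 19691; library sizes were adjusted with TMM factors; and genotypes were compared with glmQLFit and glmQLFTest and Benjamini-Hochberg adjustment over all genes tested. Standard errors are the log2 fold change over the square root of F. The methods of the study used DESeq2, an alternative here (1.42.0), as was limma-voom (3.58.1). A value of 3 counts or fewer was treated as a limit; intervals of the fits are at 95%. The fits were tested on simulated counts with 200 changed genes. Exon lengths and positions come from GENCODE M21, promoters from RefSeq. The 38 genes and the other lists were chosen with earlier results of these data known; all 38 are named, and from other lists only the most abundant or most changed genes and, chosen after their values were seen, Stra8, Hormad1, Sycp2, Ddx4, Mael, Tdrd1, Insl3, Amh, Hsd3b6, Catsperg1, Calr3, Spata6, Spata9 and Lyzl4.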

Additional observations from a re-analysis of the deposited data

How the results depend on the processing

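Of the 34 genes tested, 0 were called in either direction by the fit of all 6 libraries, and also with at least 10 counts in every library, with RLE factors, with TMM factors computed without the 20 highest genes, with total counts only and with the replicate block. Lower calls numbered 2 with no filter, 2 with DESeq2, 1 with limma-voom and 2 without Ocln-KO rep3, also over the same 34 genes; leaving out each library gave 0 to 2 lower and 0 to 1 higher, the higher call being without Ocln-KO rep3. Non-overlapping genes, 2 lower and 0 higher, became 1 higher with total counts only and 4 and 4 as shares, and ran from 2 to 5 lower and 0 to 11 higher with a library left out. The 11 higher were without Ocln-KO rep3, where 23.8% of all genes tested were lower and 22.5% higher with no overlap. For the other libraries left out, these shares over all genes were not computed. Over all genes, 992 lower and 770 higher calls became 1708 and 1604 with DESeq2, 335 and 293 with a fold change over 2 or under 0.5, 674 and 1175 with total counts only, under which the median of all genes moved to 0.09, and 19 to 944 and 4 to 782 with a library left out. With no filter these calls were 1216 lower and 942 higher, and with limma-voom 1050 lower and 729 higher.

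Replicate numbers are shared by the genotypes. Same-number deviations correlated at -0.05, -0.03 and -0.00, and those of unlike numbers at -0.08 to 0.13. These values gave no sign that the numbers pair the libraries, but with 3 libraries per genotype they cannot exclude it. With the replicate block, calls over all genes were 31 lower and 10 higher. The block gave a median log2 fold change of -0.13 for the 34 genes, limma-voom -0.20 and single libraries left out -0.29 to 0.41, against 0.08.

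Signs were unstable for small differences. With limma-voom the log2 fold change was -0.32 for Prm1, -0.13 for Prm2, -0.0153 for Akap4, -0.15 for Smcp, -0.21 for Spem1, -0.0652 for Meig1, -0.26 for Ldhc, -0.28 for Catsper1, -0.0857 for Adam2 and 0.0154 for Spata3. The replicate block gave -0.20 for Prm1, -0.11 for Prm2, -0.12 for Smcp, -0.13 for Spem1, -0.13 for Ldhc and -0.0200 for Adam2. Total counts only gave 0.0285 for Akap3 and 0.0219 for Spata3. With each library left out, values ran from -0.47 to 0.54 for Prm1, -0.44 to 0.52 for Prm2, -0.12 to 0.69 for Tnp2, -0.46 to 0.42 for Akap3, -0.21 to 0.59 for Akap4, -0.20 to 0.56 for Smcp, -0.39 to 0.22 for Fscn3, -0.34 to 0.57 for Spem1, -0.37 to 0.82 for Meig1 and -0.52 to 0.28 for Cabs1. The same ranges were -0.86 to 0.21 for Gapdhs, -0.26 to 0.56 for Ldhc, -0.71 to 0.0410 for Pgk2, -0.0358 to 1.26 for Catsper1, -1.11 to 0.11 for Catsper4, -0.42 to 0.47 for Spaca1, -0.71 to 0.26 for Zpbp2, -0.30 to 0.80 for Acr, -0.19 to 0.59 for Adam2 and -0.40 to 0.30 for Spata3. The summed CPM ran from 573 to 642 in WT and 437 to 699 in Ocln-KO. The cause of these changes was not tested. Depth limited genes under 1 CPM, such as Catsper1, Catsper4 and Acrv1.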

Other observations

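Some genes outside the 38 are given here, chosen after their values were seen. Calr3, a germ cell calreticulin that was lower in every Ocln-KO library, had 4.04, 3.99 and 3.96 CPM in WT, against 2.06, 1.82 and 2.52 CPM in Ocln-KO (log2 fold change -0.90, adjusted p = 0.0530, edgeR), with its highest Ocln-KO value in rep3. Odf2, a core outer dense fibre protein that other cells also make, had 106, 99.3 and 118 CPM in WT, against 122, 120 and 71.0 CPM in Ocln-KO, a shallower dip in rep3 than that of Odf1. Cyp17a1, a steroidogenic enzyme counted with the testis somatic genes, fell from 189, 159 and 227 CPM to 41.6, 39.0 and 14.3 CPM (log2 fold change -2.60, adjusted p = 0.0144, edgeR). Piwil2, a PIWI protein of the male germ line, fell from 26.7, 28.8 and 42.4 CPM to 17.0, 14.2 and 6.27 CPM (log2 fold change -1.38, adjusted p = 0.0484, edgeR).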
